A study of Mus musculus with 6 samples.

Results

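The NMDA receptor subunit genes Grin1, Grin2a, Grin2b, Grin2c, Grin2d and Grin3a were examined in the prefrontal cortex of aged mice. They were the rows whose Ensembl gene identifier mapped to these 6 symbols, and all 6 were found among the 21006 genes measured. The rule itself uses no measured value, although the genes were proposed with earlier results of these data known. All mice were wild-type C57BL/6 males aged 18 months by their labels, though the sample titles carry a number that differs from it. The PND group (postoperative neurocognitive disorder, n = 3) was anesthetized with isoflurane and underwent exploratory laparotomy, an operation that opens the abdomen and inspects its organs, and lidocaine cream and povidone iodine were put on the wound afterwards. The CON group (n = 3) had neither the earlier anesthesia nor the operation, so the anesthetic, the operation and the wound care cannot be told apart. In the study every mouse was trained with tones and foot shocks on the day before the time of the operation. An open field test and tests of recall followed on the day after it. Over the following days every mouse went through a Barnes maze, a test of spatial memory, and the tissue was taken soon after the maze. All mice, CON included, were put under deep isoflurane anesthesia for the perfusion that preceded tissue collection, so CON was not free of the agent, and each of the 6 samples came from 1 mouse.

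NMDA receptors are glutamate-gated cation channels that let calcium into neurons. Their common forms open mainly when glutamate, a co-agonist (glycine or D-serine) and depolarization coincide. Each channel combines GluN1, which binds the co-agonist, with GluN2 subunits, which bind glutamate, or with GluN3 subunits, which bind glycine. In the cortex GluN2B dominates early in life and GluN2A gains ground with maturation, whereas GluN2C and GluN2D are known mainly from other regions and from subsets of cells such as glia and interneurons. NMDA receptors are also among the channels that volatile anesthetics such as isoflurane inhibit.

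The 6 genes encode related proteins, and the end of the third membrane-spanning segment, part of the channel gate, is a well conserved stretch of them. It is shown for 3 of the genes, the obligatory subunit, a GluN2 subunit and the GluN3 subunit, because it is a site at which the subunit classes can be set side by side. The capitals mark the 21 bases that encode a run of amino acids shared by all 6 subunits, and 18 bases are given on each side. All 6 genes lie on the minus strand, and each stretch of 57 bases, written 5′ to 3′ on that strand, lies within 1 exon of the GENCODE M21 transcript of the gene, on GRCm38.
Grin1 (chr2:25297184-25297240, exon 15 of 21): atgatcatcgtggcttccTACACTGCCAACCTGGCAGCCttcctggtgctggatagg
Grin2c (chr11:115253734-115253790, exon 11 of 15): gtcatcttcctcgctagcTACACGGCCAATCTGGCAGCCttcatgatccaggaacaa
Grin3a (chr4:49770455-49770511, exon 3 of 9): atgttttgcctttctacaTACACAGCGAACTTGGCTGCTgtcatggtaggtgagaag

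Over their whole length the 6 transcripts differed widely in base composition. The GC content of the longest transcript was 44.8% for Grin2a, 45.7% for Grin2b and 49.2% for Grin3a. It was 59.4% for Grin1, 62.1% for Grin2c and 65.0% for Grin2d, and Grin2d was richer in GC than 99.6% of the genes with a value.

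The genes themselves lie at chr2:25291181-25319187 (Grin1), chr16:9567898-9995560 (Grin2a), chr6:135713233-136173511 (Grin2b), chr11:115249169-115267243 (Grin2c), chr7:45831883-45878378 (Grin2d) and chr4:49661611-49845744 (Grin3a). Exons of Grin1 share 1307 bases with the antisense gene Grin1os, those of Grin2d 643 bases with Gm45441, those of Grin2b 278 bases with 3 genes on the other strand and those of Grin2c 91 bases with Gm25837. The use of strand in counting is not given in the sources used here, so reads from these shared bases cannot be assigned to a strand. Exons of Grin2a and Grin3a overlap no other annotated gene.

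Levels were given as FPKM, fragment counts divided by transcript length and sequencing depth, which the authors computed after TMM scaling. Low values moved in steps of 1 fragment, from which a depth of 7190844 to 9385659 fragments was estimated for each sample, and no pair of samples held identical values. In a bulk tissue sample, fewer cells of a type and less RNA per cell cannot be told apart. The tissue carried the neuronal markers a cortex should have: Snap25, a vesicle fusion protein of neurons, averaged 482 ± 54.3 FPKM in PND mice and 499 ± 50.4 in CON mice (SD, n = 3), and Neurod6, a transcription factor of excitatory cortical neurons, had 83.2 ± 7.33 and 90.6 ± 11.8 FPKM. Marker genes of other cell types that moved with the groups are given with the cell type markers further on.

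For none of the 6 subunit genes did the difference between PND and CON pass a threshold. The unadjusted p from limma, fitted to log2(FPKM + 0.1) over all 18185 genes whose mean reached 0.1 FPKM, lay between 0.672 for Grin2c and 0.972 for Grin2a, and the Benjamini-Hochberg adjusted p was 0.9999 for each. The samples of the groups overlapped for all 6 genes, whereas they did not overlap for 7.66% of all genes tested. The cut-off of the study, an absolute log2 fold change above 1 with an unadjusted p below 0.05, was passed by 0 of the 6 subunit genes and by 1.33% of all genes. An unadjusted p below 0.05 was found for 0 of the 6 and for 3.13% of all genes, and an adjusted p below 0.05 for 0 of the 6 and for 0.011% of all genes, that is 2 genes. All 3 counts for the subunits were also 0 with voom on estimated fragments. Because so few genes passed at all, a count of 0 among 6 carries little, and the size of a difference that the data allow is given for each gene by its interval.

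Grin1 encodes GluN1, the subunit that every NMDA receptor needs. Its level was 13.5, 17.2 and 20.54 FPKM in PND replicates 1 to 3 and 16.8, 20.9 and 15.9 FPKM in CON replicates 1 to 3. The lowest sample and the second highest were both PND, and the groups overlapped. The mean was 17.1 ± 3.54 FPKM in PND mice and 17.9 ± 2.69 in CON mice (SD, n = 3). The log2 fold change was -0.075 with a standard error of 0.18 (95% interval -0.51 to 0.36, limma, unadjusted p = 0.696), so that the interval ran from 0.704-fold to 1.28-fold.

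Grin2b encodes GluN2B and was the most abundant of the 6. Its level was 81.7, 81.7 and 86.2 FPKM in PND and 82.9, 86.8 and 86.1 FPKM in CON. A pair of PND samples lay below every CON sample, the third lay between CON samples, and the highest sample exceeded the lowest by a factor of only 1.06. The mean was 83.2 ± 2.62 FPKM in PND mice and 85.3 ± 2.06 in CON mice (SD, n = 3). The log2 fold change was -0.036 with a standard error of 0.086 (95% interval -0.24 to 0.16, limma, unadjusted p = 0.689), which bounded the difference between 0.849-fold and 1.12-fold. This was the narrowest of the 6 intervals, and between 15376 and 20102 fragments per sample lay behind it, if the authors divided by the merged exon length, which is not known here.

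Grin2a encodes GluN2A, the partner subunit of the mature forebrain. Its level was 34.7, 32.3 and 30.9 FPKM in PND and 30.8, 37.8 and 29.5 FPKM in CON. The highest and the lowest samples were both CON, so the PND values lay inside the CON range. The mean was 32.6 ± 1.89 FPKM in PND mice and 32.7 ± 4.45 in CON mice (SD, n = 3). The log2 fold change was 0.0045 with a standard error of 0.12 (95% interval -0.29 to 0.30, limma, unadjusted p = 0.972), from 0.819-fold to 1.23-fold.

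Grin2c encodes GluN2C, which in the forebrain is known from astrocytes and some interneurons. Its level was 2.70, 1.46 and 2.95 FPKM in PND and 1.37, 2.86 and 2.12 FPKM in CON. PND replicate 2 and CON replicate 1 were low and the other samples were higher, in both groups alike. The values resolved into 130, 63 and 151 whole fragments in PND and 56, 127 and 83 in CON, within 0.0171 of a whole number. The log2 fold change was 0.16 with a standard error of 0.35 (95% interval -0.67 to 0.98, limma, unadjusted p = 0.672), so that a change of nearly 2-fold upward lay inside the interval.

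Grin2d encodes GluN2D, a subunit known from interneurons and from deep structures of the brain. Its level was 0.316, 0.187 and 0.315 FPKM in PND and 0.132, 0.424 and 0.412 FPKM in CON. CON replicate 1 was the lowest and the other CON samples were the highest, so the PND values lay inside the CON range. For this gene the values resolved into whole fragments (within 0.00198 of a whole number), 17, 9 and 18 in PND (44 in all) against 6, 21 and 18 in CON (45 in all), which is the counting limit on its precision. The log2 fold change was -0.11 with a standard error of 0.44 (95% interval -1.14 to 0.92, limma, unadjusted p = 0.813), the widest of the 6, and a halving and a near doubling both lay inside it.

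Grin3a encodes GluN3A, which lowers the calcium permeability of receptors that contain it and is best known from the developing brain. Its level was 4.24, 3.83 and 4.04 FPKM in PND and 4.09, 3.72 and 3.96 FPKM in CON. All 6 samples lay close together, with a PND sample highest and a CON sample lowest. The log2 fold change was 0.039 with a standard error of 0.14 (95% interval -0.29 to 0.37, limma, unadjusted p = 0.790), from 0.816-fold to 1.29-fold.

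**Figure D1:**
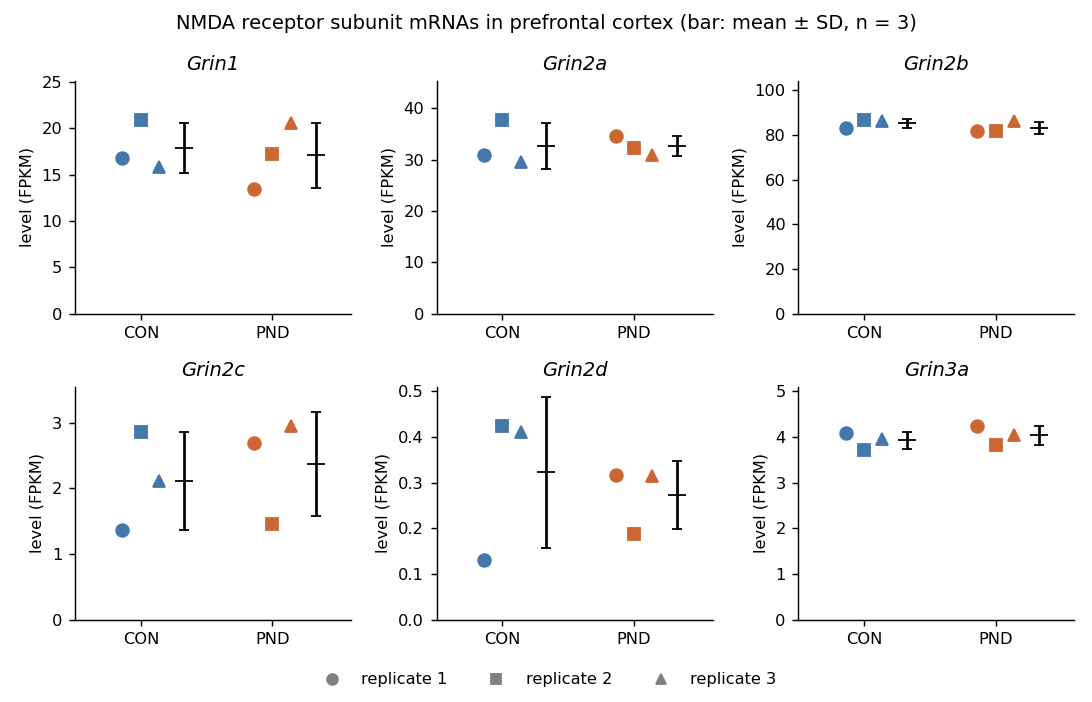
Level of each NMDA receptor subunit mRNA in FPKM (linear axis from 0) in the 3 CON and the 3 PND mice. Points are single mice, the marker shape gives the replicate number, and bars show the mean ± SD. The groups overlap in all 6 panels, the Grin2b and Grin3a points lie close together, and those of Grin2c and Grin2d are spread widely.

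**Figure D2:**
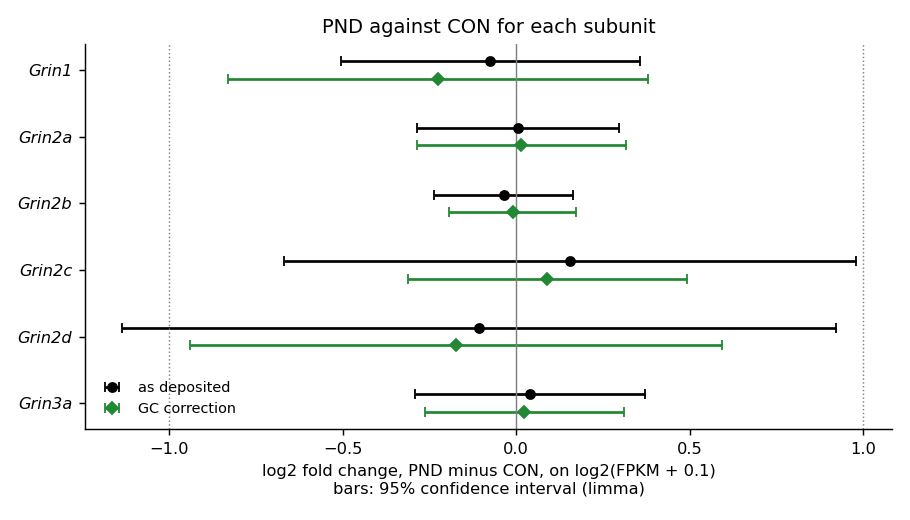
Log2 fold change of each subunit gene, PND minus CON, on the log2(FPKM + 0.1) scale, with 95% confidence intervals from limma. Black circles are the values as deposited and green diamonds the values after a correction for GC content. Dotted lines mark a log2 fold change of 1 in each direction, and every interval contains 0.

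The subunits also differed in how much they varied among mice of the same group. The pooled coefficient of variation within groups was 2.80% for Grin2b and 4.88% for Grin3a. Among the 12387 genes whose mean reached 1 FPKM the median was 17.2%, and only 0.420% of these genes varied less than Grin2b and 3.09% less than Grin3a. Grin2a with 10.47% was below that median, and Grin1 with 18.0% was near it. The least abundant subunits varied most, Grin2c by 34.4% and Grin2d by 43.0%.

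The subunits that varied most were also the ones richest in GC. In each sample, the deviations of single genes from their own means were summarised by their median within bins of like GC content (361 genes per bin). Over the bins that hold Grin1, Grin2c and Grin2d this median moved across the 6 samples by 1.11, 1.19 and 1.19 on the log2 scale. Over the bins of Grin2a, Grin2b and Grin3a it moved by 0.16, 0.079 and 0.11. GC-rich genes were thus shifted from sample to sample while genes of middling GC content were not. In the bin of Grin2c CON replicate 1 was shifted by -0.59 and PND replicate 2 by -0.34, whereas CON replicate 2 was shifted by 0.60 and PND replicate 3 by 0.46. Each group held a sample shifted up and a sample shifted down, so the shift did not separate PND from CON.

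Grin2c moved with the genes of like GC content, and Grin2d did so in part. The deviation of Grin2c was -0.61 in CON replicate 1, -0.52 in PND replicate 2, 0.40 in CON replicate 2 and 0.44 in PND replicate 3. Grin2d was at -0.72 in CON replicate 1 and 0.46 in CON replicate 2, close to its bin, but at 0.42 in CON replicate 3 and 0.12 in PND replicate 3, where its bin was at -0.011 and 0.46. After subtraction of the bin medians, the SD over the 6 samples fell from 0.47 to 0.16 for Grin2c and from 0.47 to 0.26 for Grin2d. Grin1, though rich in GC, followed its bin less closely: it deviated by -0.36 in PND replicate 1, where its bin was shifted by 0.13, and by -0.042 in CON replicate 1, where its bin was shifted by -0.61. Its SD rose from 0.24 to 0.38. For Grin2a, Grin2b and Grin3a the SD rose from 0.13 to 0.16, from 0.041 to 0.061 and from 0.065 to 0.078. The subtraction put none of the 6 genes past the cut-off, but it moved the log2 fold change to -0.23 for Grin1, 0.014 for Grin2a, -0.010 for Grin2b, 0.090 for Grin2c, -0.17 for Grin2d and 0.024 for Grin3a.

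**Figure D3:**
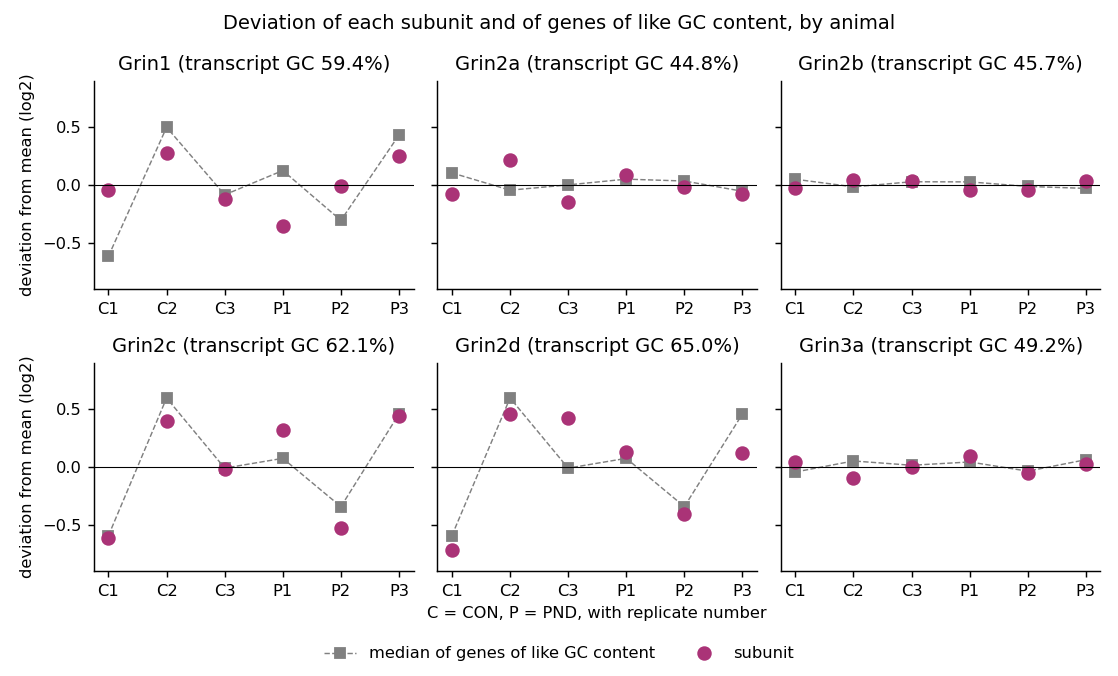
Deviation of each subunit gene from its own mean over the 6 mice (filled circles) and median deviation of genes of like GC content (squares), both on the log2 scale, for CON (C) and PND (P) replicates 1 to 3. The squares swing by over 1 log2 unit in the panels of Grin1, Grin2c and Grin2d and stay near 0 in the others, and the Grin2c circles go along with them most closely, while Grin2d departs in CON replicate 3 and Grin1 in CON replicate 1 and PND replicate 1.

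The order of the levels per length was Grin2b, Grin2a, Grin1, Grin3a, Grin2c and Grin2d, and it was the same in 6 of 6 samples. The mean over all samples was 84.2 FPKM for Grin2b, 32.7 for Grin2a, 17.5 for Grin1, 3.98 for Grin3a, 2.24 for Grin2c and 0.298 for Grin2d. The lowest Grin2b sample had 81.7 FPKM and the highest Grin2a sample 37.8, so these neighbours were far apart. Grin2d, with at most 0.424 FPKM, was likewise well below the lowest Grin2c sample with 1.37 FPKM. Grin2b ranked above 99.0% of the genes tested by mean level and Grin2d above only 12.7%.

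One place in this order depended on the length by which levels were divided. The merged exons of Grin1 span 9700 bases and its longest transcript only 4276 bases, a ratio of 2.27 that exceeded that of every other subunit gene. When the levels were rescaled to the longest transcript, an alternative chosen after seeing the data, Grin1 had 39.6 ± 6.46 and Grin2a 40.0 ± 3.75 FPKM (SD over 6 samples). This rescaling takes the merged exon length of GENCODE M21 as the length the authors divided by, which is not known, and the fragment steps of Grin2c and Grin2d implied other lengths (5453 and 6081 bases against 5037 and 6658 merged). The ranges of Grin1 and Grin2a, 30.5 to 47.5 and 36.1 to 46.3 FPKM, then overlapped, so that the order of these neighbours rests on a length that is not known here. The mean Grin2a level was 1.87 times that of Grin1 as deposited and 1.01 times after rescaling. The other places stayed, with 87.0 FPKM for Grin2b, 6.52 for Grin3a, 2.31 for Grin2c and 0.365 for Grin2d.

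The balance of the GluN2 subunits sets the kinetics and the magnesium block of NMDA receptors, and it was therefore compared as a share of the summed FPKM of Grin2a, Grin2b, Grin2c and Grin2d. Grin2b made up 68.4%, 70.7% and 71.6% of the sum in PND and 72.0%, 67.9% and 72.9% in CON. Grin2a made up 29.0%, 27.9% and 25.7% in PND and 26.7%, 29.5% and 25.0% in CON. The extremes of both shares were CON samples, so the groups overlapped. The Grin2b share was 70.2 ± 1.63% in PND and 70.9 ± 2.66% in CON, and the Grin2a share 27.5 ± 1.71% and 27.1 ± 2.31% (SD, n = 3). The exact two-sided permutation test over samples gave p = 0.7 for Grin2b and p = 0.8 for Grin2a, where the smallest p that 3 against 3 samples allow is 0.1.

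The minor subunits took a small part of the sum in every mouse. Grin2c made up 1.99 ± 0.637% in PND and 1.74 ± 0.526% in CON (exact permutation p = 0.5), and Grin2d 0.230 ± 0.0586% and 0.265 ± 0.131% (exact permutation p = 0.6). After Benjamini-Hochberg adjustment over the 4 shares the exact permutation p was 0.8 for each. Each difference in share was smaller than the SD within either group.

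Grin2b exceeded Grin2a in every mouse, by 2.36-, 2.53- and 2.79-fold in PND and by 2.69-, 2.30- and 2.92-fold in CON. The log2 ratio of Grin2a to Grin2b was -1.35 ± 0.12 in PND and -1.39 ± 0.18 in CON (SD, n = 3, exact permutation p = 0.8). The summed Grin2 level exceeded Grin1 by 8.87-, 6.71- and 5.86-fold in PND and by 6.87-, 6.11- and 7.44-fold in CON. PND replicate 1, the sample with the least Grin1, had the highest ratio and PND replicate 3 the lowest, so the PND range enclosed all CON values. The log2 ratio was 2.82 ± 0.30 in PND and 2.76 ± 0.14 in CON (SD, n = 3, exact permutation p = 0.9). The difference between the groups was 0.053 as deposited and 0.22 after the GC correction (exact permutation p = 0.6). The size of this ratio rests on the Grin1 length described above, and the Grin2 shares and folds rest on the lengths of the Grin2 genes. Rescaled to the longest transcript, the mean was 87.0 FPKM for Grin2b and 40.0 for Grin2a, against 84.2 and 32.7 as deposited. The difference between the groups in the log2 ratio of Grin2a to Grin2b was 0.040 either way.

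**Figure D4:**
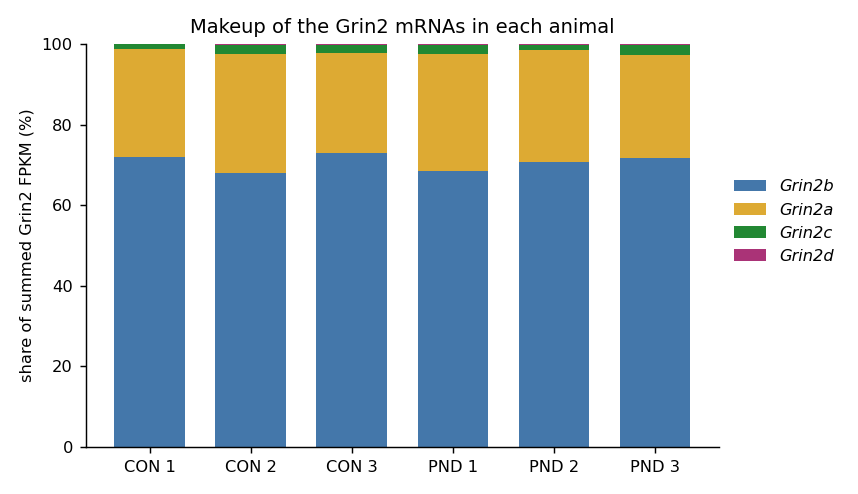
Share of each Grin2 gene in the summed FPKM of Grin2a, Grin2b, Grin2c and Grin2d, in percent, 1 bar per mouse. With FPKM as deposited, Grin2b takes between 67.9% and 72.9% of every bar, with no separation of the 3 CON from the 3 PND mice. Grin2d is barely visible.

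For each subunit whose mean reached 1 FPKM, the genes with the most similar course over the 6 samples were sought among 12322 genes, as the root mean square distance of centred log2(FPKM + 0.1) values. With 6 samples and so many genes some close neighbours are always found, and the distances describe these samples only. The nearest were Nrp1 (distance 0.018) and Dtna (0.021) for Grin2b, Vdac1 (0.020) and Fryl (0.021) for Grin3a, Gm13111 (0.027) and Armh4 (0.028) for Grin2a, Epha10 (0.044) and Ubl7 (0.055) for Grin2c, and Swi5 (0.052) and Entpd5 (0.060) for Grin1. The neighbours of Grin2c were GC-rich like Grin2c itself, with 59.5% for Epha10 and 56.4% for Ubl7, and those of the other subunits lay between 41.8% and 52.8%. No subunit was among the nearest of another. The closest pair was Grin2b and Grin3a at a distance of 0.083, which put Grin3a at place 546 for Grin2b and Grin2b at place 543 for Grin3a. Any 2 genes that vary little are close by this measure, as Grin2b and Grin3a were. They deviated in the same direction in PND replicates 2 and 3 and in opposite directions in the other samples.

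Relatives of the family were looked at beside the 6 genes. Grin3b, the gene of the other glycine-binding GluN3 subunit, was listed at 0 in 5 samples and at 0.0752 FPKM in PND replicate 2, and it was too low to be tested. Grina, a membrane protein related to glutamate receptors in name, had 19.0, 10.46 and 28.4 FPKM in PND and 6.15, 29.9 and 15.4 FPKM in CON, with a log2 fold change of 0.33 (limma, unadjusted p = 0.588). Neto1, an auxiliary protein of glutamate receptors, had 52.2, 57.6 and 46.2 FPKM in PND and 63.6, 44.0 and 47.5 FPKM in CON, with a log2 fold change of 0.021 (limma, unadjusted p = 0.899). The groups overlapped for Grina and Neto1, and the Grina values were uneven within both groups, more so within CON.

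Genes that supply the co-agonist or act around the receptor were taken from 4 lists, the 3 relatives included. Of 61 genes listed 60 were in the data and 58 were tested. None of the 58 had an unadjusted p below 0.05 in either direction, against 3.13% of all genes, and 1 did not overlap between the groups, against 7.66%. Positive fold changes were seen for 36 of the 58 and for 9529 of all 18185 genes. The median log2 fold change was 0.050 over the lists and 0.012 over all genes. The count of 0 rose to 3 after the GC correction, with 1 gene higher and Lin7a and Src lower, and to as many as 3 when 1 sample was left out (without CON replicate 2). Over all genes the count rose as well, from 569 of 18185 to 791 of 18185 after the GC correction and to 960 of 18177 without CON replicate 2, so 3 of 58 list genes lay near the share of all genes under those settings.

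For the co-agonists, which comprise the synthesis and transport of glycine and D-serine, 10 genes were tested. The median log2 fold change was 0.097 and 7 were positive. The smallest p, 0.138, was that of Psat1, an enzyme of serine synthesis, with 7.31, 8.67 and 8.74 FPKM in PND and 8.19, 6.65 and 5.39 FPKM in CON. Serine racemase, Srr, which makes D-serine, averaged 3.98 ± 0.708 FPKM in PND mice and 4.54 ± 2.34 in CON mice (SD, n = 3, limma, unadjusted p = 0.803). The glycine transporter Slc6a9 had 0.830 ± 0.0779 and 0.782 ± 0.314 FPKM (limma, unadjusted p = 0.691). Glra2, a glycine receptor subunit and the most abundant of the list over all 6 samples, though not within PND, had 7.62 ± 0.657 and 8.69 ± 3.35 FPKM (limma, unadjusted p = 0.639). Psat1, Srr and Slc6a9 were picked from the list after the values were seen.

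Scaffold and trafficking proteins anchor NMDA receptors at the postsynaptic density and carry them there. All 20 genes of this list were tested, 10 of them with a positive fold change, and the median was 0.00081. Lin7a, a PDZ adaptor in the complex that transports GluN2B, had 36.3, 37.5 and 38.0 FPKM in PND and 46.4, 40.3 and 43.8 FPKM in CON. All PND samples lay below all CON samples, with a log2 fold change of -0.22 (SE 0.097, limma, unadjusted p = 0.0572). Nefl, a neurofilament subunit that binds GluN1 and the most abundant of the list, averaged 129 ± 5.63 FPKM in PND mice and 132 ± 11.03 in CON mice (SD, n = 3, limma, unadjusted p = 0.740). Dlg4, which encodes the scaffold PSD-95, had 30.8 ± 7.83 and 29.0 ± 13.0 FPKM (limma, unadjusted p = 0.659). Lin7a and Dlg4 were picked after the values were seen.

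The list of kinases, phosphatases and calcium signalling held 26 genes, 17 with a positive fold change and a median of 0.056. Calm2, a calmodulin gene and the most abundant of the list, averaged 476 ± 13.5 FPKM in PND mice and 484 ± 68.4 in CON mice (SD, n = 3, limma, unadjusted p = 0.918). Cdk5r1, the activator of the kinase Cdk5, had the lowest fold change of the list, and it came from 1 sample. Its level was 4.79 FPKM in PND replicate 3 and between 26.8 and 37.0 FPKM in the other samples, which gave a log2 fold change of -0.94 (limma, unadjusted p = 0.182). Cdk5r1 was picked after the values were seen.

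**Figure D5:**
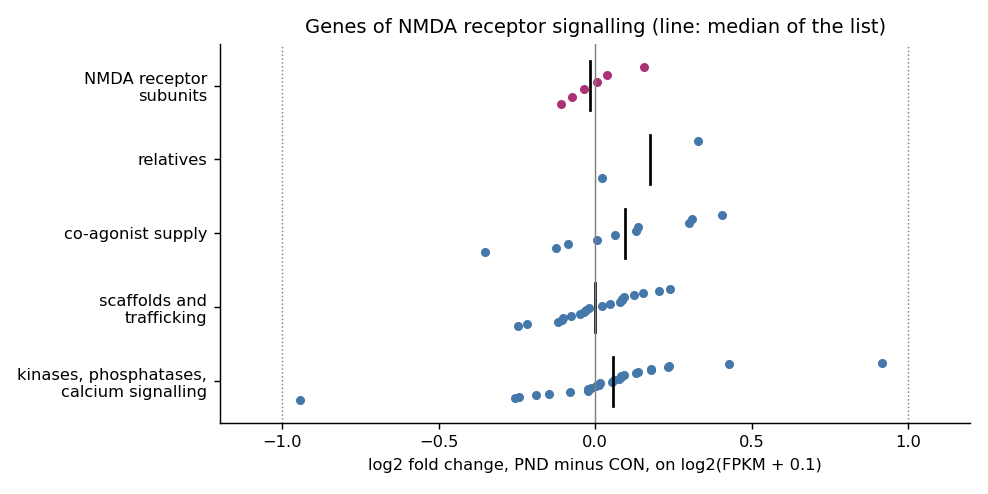
Log2 fold change, PND minus CON, on the log2(FPKM + 0.1) scale, of the 6 subunit genes and of the tested genes of the 4 lists around the receptor. Each point is a gene, vertical position within a list only separates points, black lines are list medians and dotted lines mark a log2 fold change of 1 in each direction. The points gather near 0 and none passes a dotted line.

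Because subunits differ between cell types, marker lists were read beside them. The summed level of the 12 pan-neuronal markers was 1003 to 1087 FPKM in PND and 1010 to 1077 FPKM in CON, and none had an unadjusted p below 0.05. For excitatory neurons the sums of 10 markers were 250 to 323 and 230 to 434 FPKM, Neurod6 being the highest. For interneurons the sums of 10 markers were 223 to 247 and 215 to 242 FPKM, Gad2 being the highest, and Dlx1 was lower in PND (log2 fold change -1.87, limma, unadjusted p = 0.00517) at no more than 1.79 FPKM in any sample. For astrocytes the sums of 10 markers were 383 to 515 and 331 to 634 FPKM, Slc1a2 being the highest, with Gfap higher (0.66, limma, unadjusted p = 0.00294) and Aqp4 lower (-0.36, limma, unadjusted p = 0.0275). The adjusted p was 0.9999 for each of these genes and for those named in the other marker lists.

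Among the other lists, the endothelial sum was the one that separated the groups, at 33.9 to 44.1 FPKM in PND and 30.3 to 31.7 FPKM in CON. Ly6c1 was higher (0.79, limma, unadjusted p = 0.00568), and Slco1a4 was the highest of the 6 endothelial markers. In oligodendrocytes, with Mobp highest, Opalin was lower (-0.78, limma, unadjusted p = 0.0291), though its samples overlapped between the groups. The sums of the 9 oligodendrocyte markers overlapped as well, at 269.6 to 348.5 FPKM in PND and 316.0 to 347.5 FPKM in CON. Their median fold change was -0.19 on the log2 scale, and 2 were positive. In microglia P2ry12 was lower (-0.76, limma, unadjusted p = 0.00767). Of the 8 microglial markers 4 had a positive fold change, with a median of 0.067, and their sums overlapped at 52.9 to 63.1 FPKM in PND and 51.0 to 67.5 FPKM in CON. Of neighbouring structures, Prkcd of the thalamus (0.70, limma, unadjusted p = 0.0375) and Clic6 of the choroid plexus (0.80, limma, unadjusted p = 0.0319) were higher at means below 2 FPKM, and 0 of 8 striatal markers, with Penk highest, passed the threshold. The striatal sum was as large as that of the interneuron markers and uneven, at 211 to 263 FPKM in PND and 136 to 347 FPKM in CON, with Penk at 50.0 FPKM in CON replicate 2 and 147 FPKM in CON replicate 3. Thalamic and choroid plexus sums were 16.9 to 18.9 and 2.64 to 3.46 FPKM in PND against 15.7 to 18.5 and 1.48 to 2.90 FPKM in CON. Of the cerebellar granule cell markers, where Grin2c is normally strong, Neurod1 was the highest, 0 of 3 tested passed, and Gabra6, Barhl1 and Rln3 were not analysed here. The part of these cell types in the subunit levels was not tested.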

How the data were processed

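In the study, the authors sequenced ribosomal RNA-depleted total RNA, filtered reads with Seqtk, aligned them with HISAT2, counted them with StringTie, scaled by TMM and deposited FPKM, 1 column per sample. The submitters' processing notes also name Bowtie 0.12.2 and the builds mm8 and mm9, without a role. The build, annotation and strand setting used for mRNA are not given in the sources used here.

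Symbols were matched for 20866 of 21006 identifiers. Coordinates, lengths and GC content came from GENCODE M21 (GRCm38), which held 20877. Groups came from the treatment labels and replicate numbers from the titles. For genes with 1 transcript, 93.8% to 94.5% of low values lay within 0.05 of whole fragments, against 41.3% to 44.7% for all genes, so a count test was not used for reported values.

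PND was compared with CON by limma 3.58.1 (R 4.3.3) on log2(FPKM + 0.1) of all genes whose mean reached 0.1 FPKM, with a mean-dependent prior variance, no covariate and Benjamini-Hochberg adjustment. This scale understates changes of low genes. The script was tested on simulated data. Shares and ratios were compared by exact permutation tests. The limma p-values rest on the spread between 3 mice per group, drawn by the prior variance toward the spread of genes of like level. For Grin2b and Grin3a the limma standard errors, 0.086 and 0.14, exceeded their SD over the 6 samples, 0.041 and 0.065 on the log2 scale. Their intervals and p-values thus owe much to the prior variance. Permutation p-values rest on the 6 samples alone.

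The members, gene lists and tests were chosen with earlier results of these data known. Genes were named by rule: the 6 subunits, their relatives, the most abundant gene of each list, list genes with an unadjusted p below 0.05 and the 2 nearest in course. Alternatives were other pseudocounts, filters, scalings and models, a GC correction in 50 bins, a replicate block and leaving out each sample. Some genes and sequences within this rule are not reported here.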

Additional observations from a re-analysis of the deposited data

How the results depend on the processing

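No alternative brought any of the 6 subunits past the cut-off or to an unadjusted p below 0.05 in limma, but the signs of these small differences were not stable for Grin1, Grin2a, Grin2c and Grin2d. Grin2b stayed negative throughout, and Grin3a changed sign under 1 alternative. Grin2a turned to -0.0012 under median centring and -0.045 under pan-neuronal centring, Grin3a to -0.010 and Neto1 to -0.028 under pan-neuronal centring, and Calm2 to 0.0071 under the GC correction, with and without the replicate block. When 1 sample was left out, the log2 fold change ran from -0.22 to 0.085 for Grin1, -0.066 to 0.11 for Grin2a, -0.062 to -0.022 for Grin2b, -0.11 to 0.46 for Grin2c, -0.49 to 0.094 for Grin2d, 0.0028 to 0.075 for Grin3a, -0.27 to 0.86 for Grina, -0.085 to 0.18 for Neto1, -0.33 to 0.17 for Glra2, -0.11 to 0.0061 for Nefl and -0.10 to 0.095 for Calm2. The difference in share ran from -0.59 to 1.70 percentage points for Grin2a, -2.20 to 0.30 for Grin2b, -0.024 to 0.62 for Grin2c and -0.11 to 0.0066 for Grin2d, that of the log2 ratio of Grin2a to Grin2b from -0.037 to 0.14 and that of summed Grin2 to Grin1 from -0.11 to 0.19. The cause of these changes of sign was not tested.

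Of the 58 tested list genes, 0 had an unadjusted p below 0.05 as reported, 3 under the GC correction (1 higher, Lin7a and Src lower), 1 under the GC correction with replicate block and 0 to 3 without 1 sample: 1 gene without PND replicate 2, Homer1 and Psat1 without CON replicate 1, and Lin7a, Camk2a and Phgdh without CON replicate 2. Over all genes the count was 569 of 18185 as reported, 791 of 18185 under the GC correction, 642 of 18185 with the block added, 595 of 18204 without PND replicate 2, 836 of 18205 without CON replicate 1 and 960 of 18177 without CON replicate 2. The named genes were chosen after their values were seen, and all had adjusted p-values above 0.05. The number of all genes past the cut-off ran from 25 with pseudocount 1 to 388 without CON replicate 2, against 241. Same-numbered samples correlated at -0.049, -0.45 and 0.027, and samples of unlike number at -0.42 to 0.43. The numbers thus gave no sign of a pairing, though these correlations cannot show that there was none. The replicate block changed no call for the subunits, and its paired exact p was 0.75 for each share and ratio, a test that cannot pass 0.05 with 3 pairs. Grin2d could not be fitted with a minimum mean of 1 FPKM. Depth limits Grin2d most.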
